A study of Mus musculus with 12 samples.

Results

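Long intergenic noncoding RNAs (lincRNAs) were the genes that the GENCODE M21 annotation gives the biotype lincRNA and that had a mean of at least 50 counts over the 12 libraries. That rule gave 96 lincRNAs out of 46078 genes in the files, of which 3179 carry the biotype; 1744 of those had no count in any library and 1339 had a mean above 0 but under 50. The lincRNAs just inside the limit were Gm12018, Gm14565 and Gm26624, with mean counts of 50.3, 53.4 and 55, and those just outside were Gm43672 at 48.8, Gm10660 at 48.2 and 2010320M18Rik at 47.7. The tissue was epithelium scraped from the proximal ileum of male C57BL/6 mice. The 3 vehicle mice received sesame oil by oral gavage and the others the dioxin TCDD in sesame oil at 3, 10 or 30 µg/kg, with 3 mice per dose. All 12 animals were gavaged every 4 days, 7 times over 28 days, starting at 28 days of age and ending at 56 days. The comparison asks which lincRNAs followed the dose of this ligand of the aryl hydrocarbon receptor (AhR).

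LincRNAs are RNA polymerase II transcripts, usually capped, spliced and polyadenylated, that lie between protein-coding genes and have no known long reading frame. A few have known roles in the nucleus, such as Malat1 in nuclear speckles and Neat1 as the scaffold of paraspeckles, while others are host transcripts of small nucleolar RNAs (snoRNAs) or microRNAs, and most have no assigned function. AhR is a ligand-activated transcription factor that binds, with its partner ARNT, to elements with the core GCGTG and switches on genes such as Cyp1a1.

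Sequences of 4 lincRNAs on which the results turned are shown because they say what the counts of these lincRNAs can and cannot resolve. The promoter window of 2610035D17Rik, from 250 bases before to 50 after its RefSeq start (chr11:113201789-113202088, minus strand, GRCm38.p6), is given because this lincRNA was the one called at more than 1 dose. It is in lower case throughout because neither GCGTG nor its reverse complement CACGC occurs in it.
2610035D17Rik promoter: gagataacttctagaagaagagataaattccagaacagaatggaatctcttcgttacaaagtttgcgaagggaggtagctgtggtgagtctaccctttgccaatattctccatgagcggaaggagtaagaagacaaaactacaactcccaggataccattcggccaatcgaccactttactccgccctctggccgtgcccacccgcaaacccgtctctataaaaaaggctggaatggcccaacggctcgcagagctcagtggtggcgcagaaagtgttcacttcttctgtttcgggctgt
Gm3054 is printed whole, as its annotated transcript has only 265 bases; the capitals mark the ATG at base 70, from which a reading frame runs for 195 bases (73.6% of the transcript) without reaching a stop.
Gm3054 transcript: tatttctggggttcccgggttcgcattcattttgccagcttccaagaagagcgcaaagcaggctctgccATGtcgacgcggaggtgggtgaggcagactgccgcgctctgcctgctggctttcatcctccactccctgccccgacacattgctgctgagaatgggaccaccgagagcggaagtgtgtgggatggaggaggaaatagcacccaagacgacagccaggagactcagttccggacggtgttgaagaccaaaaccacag
Gm26870 is built from a tandem repeat, and its first and second units are shown with the 6 bases at which they differ in capitals.
Gm26870 repeat unit 1: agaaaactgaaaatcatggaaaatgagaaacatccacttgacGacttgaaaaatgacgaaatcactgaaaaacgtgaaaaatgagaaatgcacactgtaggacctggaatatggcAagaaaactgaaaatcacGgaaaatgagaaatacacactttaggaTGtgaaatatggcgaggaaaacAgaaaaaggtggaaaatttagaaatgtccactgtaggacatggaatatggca
Gm26870 repeat unit 2: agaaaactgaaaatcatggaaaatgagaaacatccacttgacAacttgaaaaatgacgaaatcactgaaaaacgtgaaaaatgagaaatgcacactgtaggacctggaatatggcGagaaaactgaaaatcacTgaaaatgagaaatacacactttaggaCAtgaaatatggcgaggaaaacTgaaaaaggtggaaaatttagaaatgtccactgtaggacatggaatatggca
The first 300 bases of Gm42743 are shown with the bases it shares with other annotated genes in capitals, 258 of its 1511 bases at the 5′ end.
Gm42743 transcript start: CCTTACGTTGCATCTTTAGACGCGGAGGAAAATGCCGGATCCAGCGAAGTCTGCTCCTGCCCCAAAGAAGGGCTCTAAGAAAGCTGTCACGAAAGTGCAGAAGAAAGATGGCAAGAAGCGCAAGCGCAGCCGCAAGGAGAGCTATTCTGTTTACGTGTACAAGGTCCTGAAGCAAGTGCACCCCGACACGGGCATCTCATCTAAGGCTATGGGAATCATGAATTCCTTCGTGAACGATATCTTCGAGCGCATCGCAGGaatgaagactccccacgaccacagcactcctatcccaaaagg

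Sequencing yielded between 11695887 and 22180274 reads assigned to genes per library, so that 3 counts, the floor used here, equal 0.135 to 0.257 CPM (counts scaled to library size; the levels of single genes also carry edgeR's TMM factors). The enterocyte marker list was present in all libraries, with 12 of 12 genes tested and none called at any dose in edgeR (at the 3 doses in order, 1, 2 and 1 had an unadjusted p under 0.05), and the ileal list was present too, with 5 of 5 genes tested and 1 called higher at 3 µg/kg. A score of circadian clock genes was above 0 in 2 of 3 libraries in vehicle and at 30 µg/kg and in 1 of 3 at each other dose. Of 6 known AhR targets, none was called higher at 3 µg/kg, where Cyp1a2 was called lower, and 3 and 4 were called higher at 10 and 30 µg/kg. At 30 µg/kg 7 of 8 Paneth cell markers, 4 of 7 goblet and 6 of 8 enteroendocrine markers were called higher; the summed Paneth level was 717 to 1098 CPM in vehicle and 2270 to 3297 CPM at 30 µg/kg, with no Paneth marker at 0 in all libraries. Other lists moved too. All 6 smooth muscle markers had an unadjusted p under 0.05 at 10 µg/kg, with a median log2 change of -1.99, though none was called. Their sum was 48.9 to 177.8 CPM in vehicle and 20.6 to 31.4 CPM at 10 µg/kg. Of 3 pancreatic acinar markers tested, 2 were called lower at 3 and at 30 µg/kg. The part of these cell types in the results below was not tested. In bulk tissue, a change in the number of cells that make a transcript and a change in RNA per cell cannot be told apart.

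In the main edgeR fit, TCDD changed few of the 96 lincRNAs, and those called at a dose were all higher than in vehicle. A lincRNA was called when its Benjamini-Hochberg (BH) adjusted p in edgeR's quasi-likelihood test was under 0.05 and its change at least 1.5-fold. All 96 passed the filter on low counts. None was called at 3 µg/kg, against 0.228% of all 15823 genes tested (0.0569% higher); 12 had an unadjusted p under 0.05, beside 11.4% of all genes. At 10 µg/kg 1 was called, where the background was 0.613%, and 14 had an unadjusted p under 0.05, beside 15.9% of all genes. At 30 µg/kg 5 were called, all higher, against 3.97% of all genes (3.08% higher and 0.891% lower) and 4.71% of genes with a mean count of at least 50. At this dose 27 had an unadjusted p under 0.05, beside 21.6% of all genes. DESeq2 also called lower lincRNAs, namely Gm26917 at 3 and 10 µg/kg, AI427809 at 10 and 30 µg/kg, Gm35439 at 10 µg/kg and Gm17354 at 30 µg/kg, and it called AW112010 higher at 3 µg/kg. Without the low-count filter, edgeR called Gm26917 lower at 3 and 10 µg/kg and Gm3054 lower at 3 µg/kg. Some other settings called lower lincRNAs too. For 4 lincRNAs, 3 rising and 1 falling, a slope across the ranked doses was called, against 3.29% of all genes (2.53% rising and 0.752% falling) and 3.89% of genes with that minimum. An F test of any difference among the 4 groups, judged by adjusted p alone, called 11, against 6.78% of all genes and 8.28% of genes with a mean count of at least 50. The share of lincRNAs called at 30 µg/kg, 5.21%, lay near the 4.39% of protein-coding genes with the same minimum count.

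As a group the lincRNAs stayed close to vehicle. Their median log2 change was -0.04, -0.10 and -0.04 at 3, 10 and 30 µg/kg, beside medians over all genes of 0.00, -0.01 and -0.02. At 30 µg/kg 44 of 96 lay above 0 and 85 of 96 (88.5%) stayed within 1.5-fold, beside 84.5% of all genes. The libraries of 30 µg/kg and vehicle did not overlap for 29 of the 96, with 11 higher and 18 lower, beside 26.8% of all genes (14.2% higher and 12.5% lower). The 3 libraries of a group spread by a median coefficient of variation of 13.8% in vehicle and 14.4% at 30 µg/kg, against about 10.3% for all genes with a mean of at least 50 counts in both groups.

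**Figure D1:**
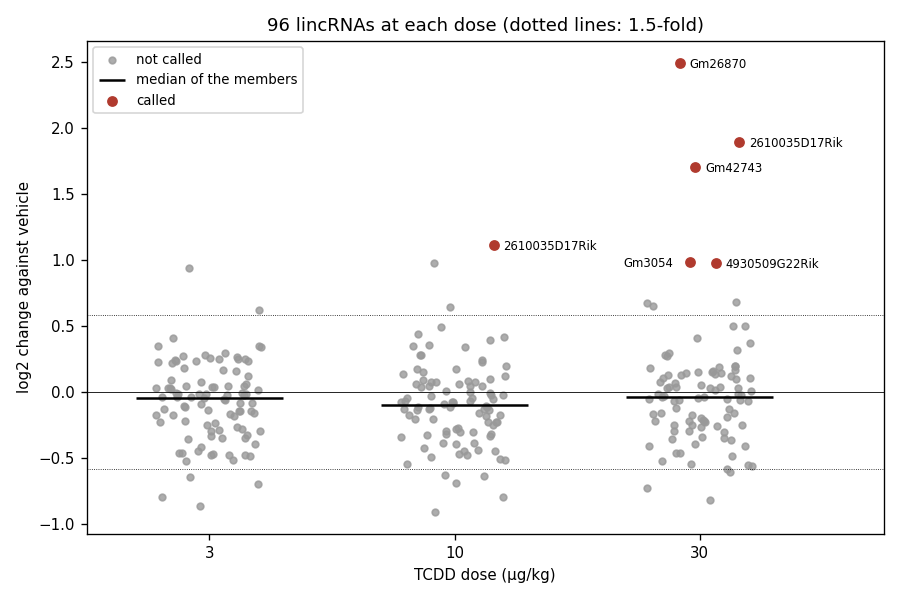
Log2 change against vehicle (vertical axis) of each of the 96 lincRNAs at 3, 10 and 30 µg/kg TCDD, with called lincRNAs in red, the median of the 96 as a bar and the 1.5-fold limits dotted. The 96 lie around 0 at each dose, with 2610035D17Rik called at 10 µg/kg and 5 lincRNAs called above the upper limit at 30 µg/kg.

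2610035D17Rik showed the clearest dose response. This lincRNA (ENSMUSG00000087259, 5 exons, chr11:113043895-113201838, minus strand) overlaps no other gene, and 1.54% of its 31-base words occur in another annotated gene. In the 3 vehicle libraries it had 3.38, 3.42 and 2.89 CPM, and at 3 µg/kg it had 3.02, 4.26 and 3.23 CPM. At 10 µg/kg the values were 5.91, 8.42 and 6.68 CPM and at 30 µg/kg they were 10.6, 11.3 and 14.1 CPM. The vehicle and 3 µg/kg libraries shared a range, every library of 10 µg/kg lay above both, and every library of 30 µg/kg lay above all of 10 µg/kg. Against vehicle its log2 change was 0.12 (SE 0.20) at 3 µg/kg and 1.11 (SE 0.19; BH-adjusted p in edgeR 0.0198) at 10 µg/kg, then 1.89 (SE 0.19; BH-adjusted p in edgeR 0.000106) at 30 µg/kg, which is 2.16-fold and 3.71-fold. The trend over the whole dose range was 2.00 (SE 0.21; BH-adjusted p in edgeR 0.000147). The exact Jonckheere-Terpstra test over all arrangements of the 12 libraries gave a BH adjusted p of 0.0374, and 2610035D17Rik was the only lincRNA that this test called, against 1.25% of all genes.

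The change of 2610035D17Rik at 30 µg/kg was called in all 12 fits that left out 1 library, with log2 changes of 1.76 to 1.97. The call at 10 µg/kg was kept in 7 of 12, and was lost without any 1 of the vehicle libraries and without replicate 2 or 3 of 10 µg/kg; the log2 change over these fits was 0.96 to 1.22. The promoter window printed above holds no AhR core letters, and its 1861-base transcript holds 4, the first at base 363 and the last at base 1257. The core was not counted in other transcripts, so the 4 have no rate to be judged by. Across the RefSeq windows of the same length, GCGTG or CACGC, searched on both strands, occurred in 9500 of 27025 genes (35.2%) and in 14 of the 42 lincRNAs found in that table (33.3%).

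Within 1000000 bases of 2610035D17Rik lie 9 protein-coding genes, 7 of which were tested, and edgeR called none at 30 µg/kg (0 at an unadjusted p under 0.05). Across all genes edgeR called 3.97% at that dose, and 21.6% had an unadjusted p under 0.05. The nearest, the zinc transporter gene Slc39a11 at 43015 bases, had a log2 change of -0.17 (SE 0.10), and Sox9, a transcription factor of crypt and Paneth cells at 256135 bases, had 0.24 (SE 0.21). The lowest BH-adjusted p in edgeR among the tested neighbours was 0.288.

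**Figure D2:**
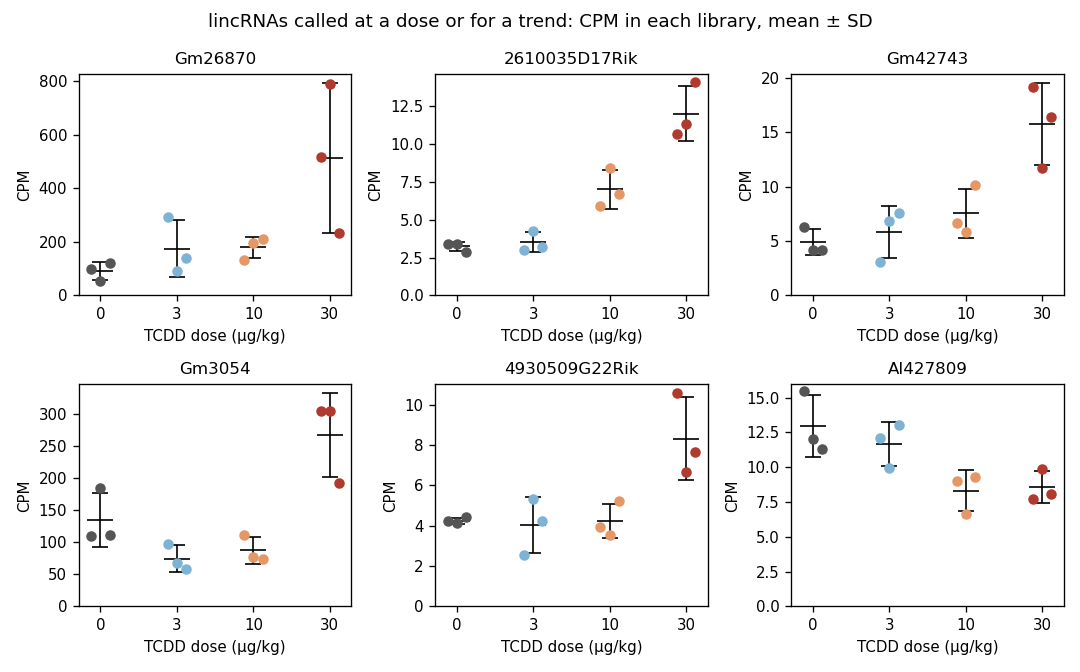
CPM (vertical axis, starting at 0) of the 6 lincRNAs called at a dose or for a trend, against the TCDD dose; each point is 1 library and the bars are the mean ± SD of 3. 2610035D17Rik steps up at 10 and 30 µg/kg, Gm26870, Gm42743, Gm3054 and 4930509G22Rik are highest at 30 µg/kg, and AI427809 is lower at 10 and 30 µg/kg.

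Gm26870 had the largest log2 change of the 96 at 30 µg/kg. It lies on chr9:3000282-3038313 (minus strand), and the longest annotated transcript is a repeat with a period of 234 bases: 81.5% of its bases equal the base 234 positions on, against a median of 30.6% over other shifts. In vehicle it had 97.0, 55.6 and 121 CPM, at 3 µg/kg 294, 91.0 and 140 CPM, at 10 µg/kg 133, 195 and 209 CPM, and at 30 µg/kg 516, 789 and 233 CPM. Every library of 30 µg/kg lay above every vehicle library, while replicate 1 of 3 µg/kg lay above replicate 3 of 30 µg/kg. Its change at 30 µg/kg was 2.49 on the log2 scale (SE 0.48; BH-adjusted p in edgeR 0.00881) and the trend 2.29 (SE 0.44; BH-adjusted p in edgeR 0.00855). It stayed called in all 12 fits without 1 library, with log2 changes between 2.04 and 2.84.

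Reads of Gm26870 cannot be placed with certainty, although the authors set reads with more than 1 alignment aside. The share of its 31-base words found in other annotated genes was 75.2%, spread over 12 genes, and 9 annotated genes overlap it on the other strand. All 9 were tested and 5 were called higher at 30 µg/kg (Gm10715, Gm10717, Gm10719, Gm10720 and Gm11168), with log2 changes of 1.78 to 2.33; the lowest change among the 9 was 1.15. Gm10800 is on the same fixed list as Gm26870, that of genes over ribosomal RNA or with sequence like it. Its change was 2.58 (SE 0.62, BH-adjusted p in edgeR 0.0285), with a wide spread. Gm10800 had 205.5, 1288 and 371 CPM at 30 µg/kg and 100.2, 68.1 and 142.5 CPM in vehicle. Replicate 1 of 3 µg/kg, at 330.5 CPM, lay above replicate 1 of 30 µg/kg. The files do not resolve which of these loci gave the reads.

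Gm42743 rose 3.26-fold at 30 µg/kg. Its 2 exons (chr3:96269721-96279001, plus strand) overlap those of Hist2h2bb, a replication-dependent histone H2B gene, and those of Gm20628, an antisense gene on the other strand. The capitals in the sequence above mark letters shared with other annotated genes, 18 in all, among them Gm20628 and several histone H2B genes. Vehicle libraries had 6.26, 4.21 and 4.15 CPM, those of 3 µg/kg 3.09, 6.83 and 7.57 CPM, those of 10 µg/kg 6.70, 5.88 and 10.1 CPM, and those of 30 µg/kg 19.2, 11.7 and 16.4 CPM. Only the 30 µg/kg group was clear of vehicle, and it was also clear of both other doses. The log2 change was 1.71 (SE 0.31; BH-adjusted p in edgeR 0.00602) and the trend 1.68 (SE 0.30; BH-adjusted p in edgeR 0.00537). Hist2h2bb, counted apart from it, changed by 1.04 (SE 0.41; BH-adjusted p in edgeR 0.16), which was not called. How reads in the shared exons were counted is not known.

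Gm3054 followed no monotone course with dose. It lies on chr5:137154029-137166070 (minus strand), 4707 bases from the mucin gene Muc3 on the same strand, and none of its 31-base words occurs in another annotated gene. It was among the 5 lincRNAs with the highest level per length, with 533 CPM per kb of exon. The values were 111, 184 and 111 CPM in vehicle, 98.0, 66.9 and 58.8 CPM at 3 µg/kg, 112, 77.2 and 73.6 CPM at 10 µg/kg, and 306, 305 and 192 CPM at 30 µg/kg. All libraries of 3 µg/kg were below vehicle, those of 10 µg/kg overlapped it, and all of 30 µg/kg were above it. The log2 changes were -0.86 (SE 0.26; BH-adjusted p in edgeR 0.267) and -0.63 (SE 0.26; BH-adjusted p in edgeR 0.269) at 3 and 10 µg/kg and 0.98 (SE 0.26; BH-adjusted p in edgeR 0.0443) at 30 µg/kg. Any difference among the groups had a BH-adjusted p in edgeR of 0.00221, whereas the trend of 0.97 (BH-adjusted p in edgeR 0.218) was not called. Muc3 itself changed by 0.36 (SE 0.26; BH-adjusted p in edgeR 0.467). The call at 30 µg/kg held in 5 of 12 fits without 1 library, which gave changes of 0.86 to 1.27; it was lost without vehicle replicate 1 or 3, replicate 2 of 3 µg/kg, replicate 2 or 3 of 10 µg/kg, or replicate 1 or 2 of 30 µg/kg. With each library's trend with exon length and GC content removed the change was 0.66 and not called.

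4930509G22Rik (chr16:11178176-11192292, plus strand) lies 678 bases from Rsl1d1, a gene for a nucleolar protein, on the other strand. This lincRNA is among those that overlap another annotated gene. It had 4.23, 4.12 and 4.41 CPM in vehicle, 2.57, 5.31 and 4.23 CPM at 3 µg/kg, 3.96, 3.56 and 5.21 CPM at 10 µg/kg, and 10.6, 6.67 and 7.67 CPM at 30 µg/kg. The lower doses lay around vehicle and the 30 µg/kg libraries lay above all others. At 30 µg/kg it differed from vehicle by 0.98 on the log2 scale (SE 0.25; BH-adjusted p in edgeR 0.0382), and Rsl1d1 by 0.28 (SE 0.18; BH-adjusted p in edgeR 0.389). The call was lost in 8 of 12 fits without 1 library (the 12 gave changes of 0.76 to 1.11), namely without any 1 vehicle library, replicate 3 of 3 µg/kg, replicate 1 or 2 of 10 µg/kg, or replicate 1 or 3 of 30 µg/kg. It was also lost with the read index as a covariate (BH-adjusted p in edgeR 0.081).

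**Figure D3:**
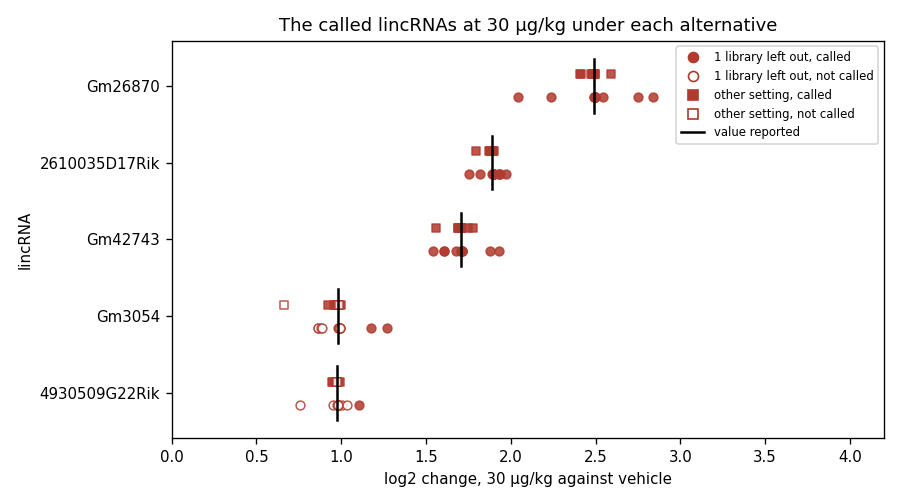
Log2 change at 30 µg/kg against vehicle (horizontal axis) of the 5 lincRNAs called there, with the reported value as a black line, fits without 1 library as circles, other settings as squares, and open symbols where the call was lost. Gm26870, 2610035D17Rik and Gm42743 are called in every fit drawn, while Gm3054 and 4930509G22Rik lose the call in 7 and 8 of the 12 fits without 1 library.

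AI427809 was the lincRNA for which the main edgeR fit called a falling trend with dose. This gene (chr4:53261356-53270232, minus strand) had 15.5, 12.0 and 11.3 CPM in vehicle, 12.1, 9.93 and 13.0 CPM at 3 µg/kg, 9.001, 6.60 and 9.31 CPM at 10 µg/kg, and 7.71, 9.86 and 8.10 CPM at 30 µg/kg. The libraries of 10 and 30 µg/kg all lay below vehicle, and those of 3 µg/kg overlapped it. Its trend fell by 0.69 on the log2 scale (SE 0.17; BH-adjusted p in edgeR 0.0384), while the difference of -0.60 at 30 µg/kg (BH-adjusted p in edgeR 0.0663) was not called. The trend was called in 4 of 12 fits without 1 library, and lost without replicate 1 or 2 of vehicle, without replicate 1 or 3 of 3, 10 or 30 µg/kg, and with the read index as a covariate (BH-adjusted p in edgeR 0.0716). Falling trends of other lincRNAs were called under other settings. That of Gm17354 was called in DESeq2, limma-voom, with the clock score as a covariate, with upper-quartile scaling and with at least 10 counts in every library, and that of Gm26917 with the length and GC correction. The nearest protein-coding gene, the cholesterol exporter gene Abca1 on the same strand, had a log2 change of -0.99 (SE 0.29; BH-adjusted p in edgeR 0.0618) at 30 µg/kg, also not called, and its trend of -1.07 (SE 0.26; BH-adjusted p in edgeR 0.0305) was called.

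A further 6 lincRNAs were called for any difference among the groups but for no single dose or trend. Of the 12 fits without 1 library, the call was kept in 12 for Gm26514, 9 for 2900097C17Rik, 8 for AW112010, 4 each for Gm26917 and Gm26853, and 3 for A430073D23Rik. With the read index as a covariate it was lost for AW112010, Gm26917 and A430073D23Rik, and with the length and GC correction for these and Gm26853. AW112010, a transcript known from activated immune cells, was highest at the lowest dose: 12.7, 14.6 and 12.3 CPM in vehicle against 21.2, 19.1 and 20.6 CPM at 3 µg/kg, 16.9, 19.4 and 16.6 CPM at 10 µg/kg and 16.0, 16.1 and 19.2 CPM at 30 µg/kg. Every TCDD library lay above every vehicle library. Its change at 3 µg/kg, 0.62 (SE 0.11; BH-adjusted p in edgeR 0.0518), just missed the threshold, and the any-difference adjusted p in edgeR was 0.0275. The summed T cell markers were 189 to 213 CPM in vehicle, 230 to 309 CPM at 3 µg/kg, 263 to 340 CPM at 10 µg/kg and 260 to 315 CPM at 30 µg/kg. Their median log2 changes were 0.12, 0.36 and 0.39 at the 3 doses. Of these 6 T cell markers, edgeR called 2 higher at 30 µg/kg, beside 3.97% of all genes called. There 4 had an unadjusted p under 0.05, beside 21.6% of all genes. The 6 B and plasma cell markers went the other way, with median log2 changes of -0.92, -1.48 and -1.93 at 3, 10 and 30 µg/kg. None of these 6 was called in edgeR, and 5 had an unadjusted p under 0.05 at 30 µg/kg. Summed, they had 106 to 292 CPM in vehicle and 101 to 125 CPM at 30 µg/kg. The part of either list in the level of AW112010 was not tested.

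2900097C17Rik, the mouse counterpart of NORAD, a cytoplasmic RNA that binds Pumilio proteins, had 11.2, 8.38 and 8.67 CPM in vehicle and 13.3, 13.9 and 12.8 CPM at 30 µg/kg. The lower doses, between 7.62 and 8.71 CPM, did not reach the highest vehicle library, and the 30 µg/kg libraries were above all others. The change there was 0.50 on the log2 scale (SE 0.13; BH-adjusted p in edgeR 0.0432), under 1.5-fold. It shares 44.7% of its 31-base words with other genes, mainly Gm7292, another of the 96, which changed by -0.05 (SE 0.09).

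Gm26514, which lies within Slc35b3, had 19.8, 15.9 and 16.6 CPM in vehicle and 11.03, 11.6 and 12.8 CPM at 30 µg/kg, with 17.1 to 23.0 CPM at the lower doses. The 30 µg/kg libraries were below all others, with a log2 change of -0.56 (SE 0.12; BH-adjusted p in edgeR 0.0197), within 1.5-fold; Slc35b3 had -0.02 (SE 0.18). Gm26853 (-0.41, BH-adjusted p in edgeR 0.0703) and A430073D23Rik (0.50, BH-adjusted p in edgeR 0.129) also had 30 µg/kg libraries clear of vehicle, in opposite directions.

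**Figure D4:**
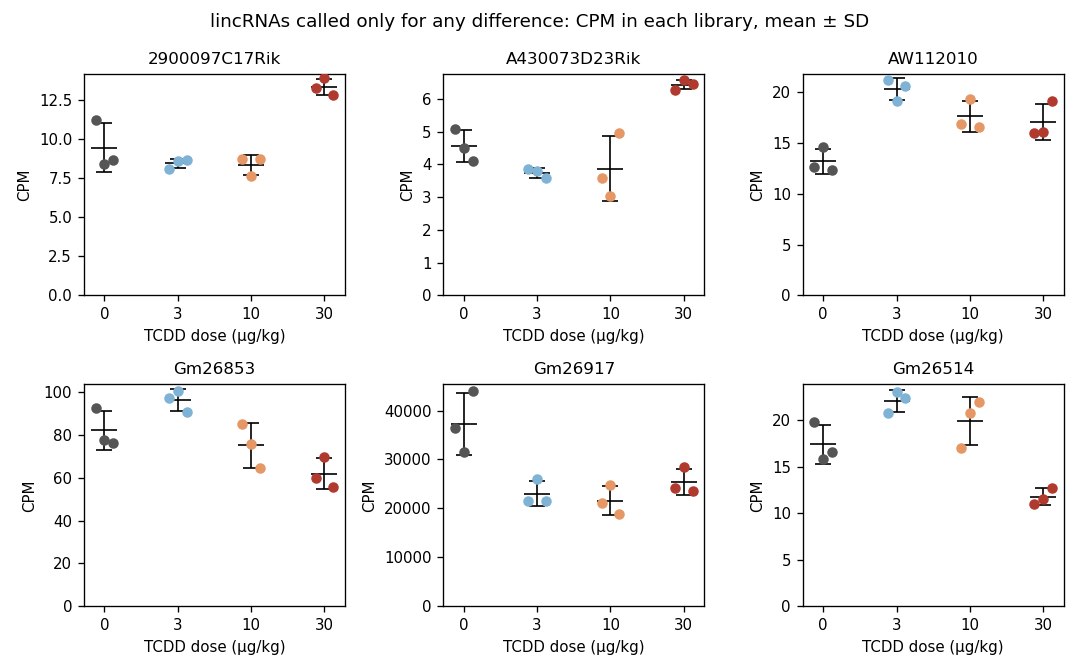
CPM (vertical axis, starting at 0) of the 6 lincRNAs called for any difference among the 4 groups but for no dose or trend, against the TCDD dose; each point is 1 library and the bars are the mean ± SD of 3. AW112010 is highest at 3 µg/kg, 2900097C17Rik and A430073D23Rik are highest at 30 µg/kg, Gm26514 and Gm26853 are lowest there, and Gm26917 is lower at every dose than in vehicle.

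The 4 most abundant lincRNAs were not called at any dose by edgeR. The 96 held 6.68% to 10.8% of gene counts per library, and 4 of them (Gm42418, Gm26917, Malat1 and Neat1) made up 97.2% to 98.5% of those counts. The other 92 lincRNAs held 0.152% to 0.168% of gene counts in vehicle, 0.159% to 0.164% at 3 and 10 µg/kg, and 0.186% to 0.244% at 30 µg/kg. All these ranges include Gm26870, which alone had 55.6 to 121 CPM in vehicle and 233 to 789 CPM at 30 µg/kg. The shares without Gm26870 were not worked out, so the higher range at 30 µg/kg cannot be read as a rise of the rest. Per length, the order was Gm42418 at 25609 CPM per kb of exon, Gm26917 at 8055, Malat1 at 1203, Gm42428 at 541 and Gm3054 at 533; the median of the 96 was 2.84 CPM per kb, and that of protein-coding genes with the same minimum count was 5.63.

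Gm42418 and Gm26917 lie next to each other on chromosome 17, at 39846958 to 39848788 and 39843013 to 39846341, over a ribosomal RNA repeat. Gm42418 overlaps CT010467.1, annotated as ribosomal RNA, and shares 96.3% of its 31-base words with it and AY036118. Gm42418 had 57360, 50610 and 54320 CPM in vehicle and 41480, 49310 and 44390 CPM at 30 µg/kg, with a log2 change of -0.26 (SE 0.19; BH-adjusted p in edgeR 0.449). Gm26917 had 36370, 31540 and 44060 CPM in vehicle and 18770 to 28490 CPM across all TCDD libraries, all below vehicle. Its log2 changes were -0.70 (SE 0.18), -0.79 (SE 0.18) and -0.56 (SE 0.18) at 3, 10 and 30 µg/kg, with BH-adjusted p in edgeR of 0.194, 0.074 and 0.0878. DESeq2, and edgeR without a low-count filter, called it at 3 and at 10 µg/kg. At 10 µg/kg it was also called by limma-voom, with the clock score as a covariate and without replicate 1 of 3 µg/kg. With the length and GC correction it was called at 30 µg/kg. CT010467.1, the ribosomal RNA gene beside them, moved the same way, with log2 changes of -0.91 and -1.20 at 3 and 10 µg/kg, both called, and -0.35 at 30 µg/kg, not called. The part of ribosomal RNA left in a library in these values was not tested.

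Malat1 had 8269, 7436 and 9461 CPM in vehicle and 7852, 7830 and 6868 CPM at 30 µg/kg, and Neat1 had 1478, 1561 and 1785 CPM and 1491, 1754 and 1346 CPM. Both overlapped between the groups. The log2 changes at 30 µg/kg were -0.16 (SE 0.14; BH-adjusted p in edgeR 0.555) for Malat1 and -0.07 (SE 0.19; BH-adjusted p in edgeR 0.872) for Neat1. None of the 7 listed paraspeckle protein genes was called at 30 µg/kg, although Nono, with 0.37, had a BH-adjusted p in edgeR of 0.0276. Gm37376, which overlaps Malat1 on the opposite strand, fell by 1.06 on the log2 scale at 30 µg/kg (BH-adjusted p in edgeR 0.00671). The strand setting of the counting is not given in the sources used here. How reads in the stretch shared with Malat1 were counted is therefore not known.

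**Figure D5:**
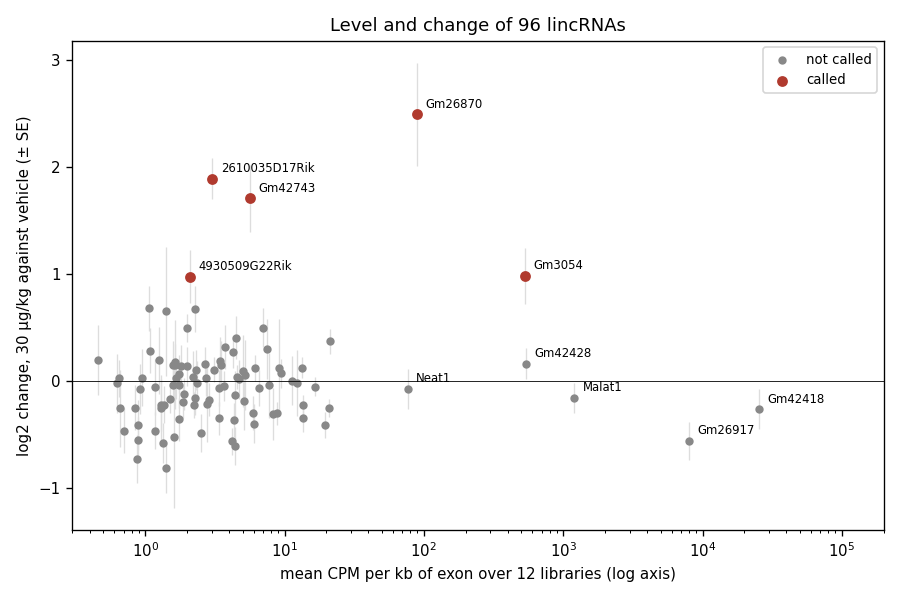
Log2 change at 30 µg/kg against vehicle (vertical axis, ± SE) of the 96 lincRNAs against their mean CPM per kb of exon over the 12 libraries (log axis), with called lincRNAs in red. The called lincRNAs are spread over the scale, from 4930509G22Rik to Gm3054, and Malat1, Neat1, Gm42418, Gm26917 and Gm42428 at the high end are not called.

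The 4 lincRNAs listed as hosts of small RNAs were not called at any dose or for a trend in the main edgeR fit. Other settings called some of them. The trend of Mir17hg was called in DESeq2 and without replicate 2 of 3 µg/kg. Any difference of Snhg12 was called in DESeq2, limma-voom, without a low-count filter and with at least 10 counts in every library. It was also called without replicate 1 or 2 of 3 µg/kg, and that of Snhg18 without replicate 1. Snhg12, overlapped by Snora16a, Snora44, Snora61 and Snord99, had 4.00, 5.46 and 5.36 CPM in vehicle and 9.70, 7.29 and 6.63 CPM at 30 µg/kg. Mir17hg, host of the miR-17 cluster, had 3.21, 2.59 and 3.05 CPM and 5.26, 4.62 and 4.27 CPM. Both were higher in every 30 µg/kg library than in vehicle, with log2 changes of 0.67 (SE 0.22; BH-adjusted p in edgeR 0.0917) and 0.68 (SE 0.21; BH-adjusted p in edgeR 0.0825), neither called. Snhg18 (0.06) and Snhg20 (0.15) overlapped with vehicle. Of 15 snoRNA host genes tested, whatever their biotype, 3 were called at 30 µg/kg, none of them a lincRNA: Gas5 (0.74), Snhg3 (0.99) and Snhg9 (2.54), against 3.97% of all genes. The median log2 change of the 15 there was 0.67, beside -0.02 over all genes, and 8 had an unadjusted p under 0.05, beside 21.6% of all genes.

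Jpx (0.20) and Ftx (0.03), lincRNAs of the X inactivation centre, were not called in the main edgeR fit. Neither was Gm42428 (0.16), a 302-base transcript whose 31-base words are all found in Gm48275 and Gm43305 too. Any difference of Gm42428 was called in DESeq2, without a low-count filter, with the clock score as a covariate and without replicate 1 of 30 µg/kg. The nuclear body and chromatin list held 14 tested genes, of which 1 was called at 30 µg/kg, Rmrp, the RNA of a ribonuclease complex and not a lincRNA. Rmrp was called in both directions, with log2 changes of -1.20 and -0.97 at 3 and 10 µg/kg and 1.03 at 30 µg/kg. None of 7 tested imprinted lncRNAs and none of 6 tested microRNA hosts was called at any dose in edgeR, with 0 and 1 at an unadjusted p under 0.05 at 30 µg/kg and median log2 changes of 0.02 and -0.08 there. Of 8 tested p53 and stress lncRNAs, 1 (Gas5) was called at 30 µg/kg.

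The remaining 74 lincRNAs, at mean levels of 2.98 to 173 CPM, had log2 changes from -0.79 to 0.41, from -0.91 to 0.49 and from -0.82 to 0.65 at the 3 doses in rising order. At 30 µg/kg 29 lay above 0 and 45 below, and 60 overlapped with vehicle, 13 were lower and 1 was higher. Of all genes, 14.2% were higher and 12.5% lower without overlap. The 74 leave out every called lincRNA, and those called at a dose were all higher, so this split is not that of the 96. The lowest BH-adjusted p in edgeR among them, 0.0595, was that of Gm17354 (-0.82), chosen after its values were seen. Gm17354 was called at this dose in DESeq2, with at least 10 counts in every library, with the clock score as a covariate and without replicate 1 of 3 µg/kg. Exon lengths of the 96 ran from 265 to 20771 bases with a median of 3086, GC content from 35.3% to 69.1%, and the median longest reading frame covered 8.78% of the longest transcript.

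Many lincRNAs of this annotation are not clear of other genes. Of the 96, 50 overlap another annotated gene, 35 of them in exons, and 51 have a protein-coding gene overlapping or within 5000 bases. Of the nearest protein-coding genes, 72 were tested and 2 were called at 30 µg/kg, Gm10720 beside Gm26870 and the neighbour of Gm26659. Among protein-coding genes with a mean count of at least 50, 4.39% were called at that dose. Among 44 tested neighbours that overlap or lie within 5000 bases, 19 had the same sign of change as the lincRNA at 30 µg/kg. With the 50 overlapping lincRNAs left out, 2 of 46 were called at 30 µg/kg, 2610035D17Rik and Gm3054. The share among all genes with a mean count of at least 50 was 4.71%.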

How the data were processed

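The deposited values are raw read counts per Ensembl gene, 1 table for each of 12 libraries; per the labels they were not normalised. The submitters' processing notes name FastQC 0.11.3, Trimmomatic 0.33, TopHat2 2.1.0, SAMtools 1.2.0, HTSeq 0.6.1, DESeq and the mouse build GRCm38. The annotation release and strand setting are not given in the sources used here. Between 60.3% and 64.6% of reads per library stood in entries that name no gene and were left out. Libraries were made with a NuGen Ovation mouse kit.

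Biotypes, positions and exons came from GENCODE M21 (GRCm38), to which 45229 of 46078 genes matched by identifier, and promoter windows from RefSeq (GRCm38.p6). Counts were fitted with edgeR 4.0.16 in R 4.3.3 (filterByExpr, 15823 genes; TMM scaling; 1 quasi-likelihood model of 4 groups, 12 libraries). CPM values carry the TMM factors, except summed marker levels and shares of counts. P-values were BH adjusted over all genes tested. The trend is the slope over dose rank, given as the log2 change over the whole range. The floors cover counting error only, since the reads carry no molecular identifiers, while standard errors come from the fit over 12 libraries and hold the spread between animals. Replicate numbers were given here in accession order and only name libraries. Shared 31-base words were counted over annotated transcripts. The scripts were tested on simulated data.

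Named lincRNAs were those called in any of the 5 tests, those in a fixed list of known noncoding RNAs, and the 5 highest by CPM per kb. The members and lists were chosen with earlier results of these data known. Alternatives were scaling by upper quartiles or by median of ratios, no low-count filter or at least 10 counts in every library, DESeq2 1.42.0, limma-voom (limma 3.58.1), a clock gene score or the read index as covariate, a correction for exon length and GC content, the compared groups alone, no fold condition, the Jonckheere-Terpstra test, other limits for membership (20 or 100 counts, no overlapping gene), and each library left out in turn.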

Additional observations from a re-analysis of the deposited data

How the results depend on the processing

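The counts of called lincRNAs (0, 1 and 5 at 3, 10 and 30 µg/kg, 4 for the trend and 11 for any difference) stayed within 1.5 times under the other settings except as follows. DESeq2 called 2 and 4 at the lower doses, 7 for the trend and 17 for any difference. At those doses 2 and 2 were called without a low-count filter, and 1 and 2 with the clock score as a covariate. At 10 µg/kg limma-voom called 2 and the compared groups alone 0. The exact Jonckheere-Terpstra test called 1 for the trend. For any difference, the read index as a covariate left 6 and the length and GC correction 7. Without the lincRNAs that overlap another gene, 2 were called at 30 µg/kg, 2 for the trend and 7 for any difference. With each library left out in turn the counts were 0 throughout at 3 µg/kg, 0 to 2 at 10 µg/kg, 3 to 6 at 30 µg/kg, 3 to 5 for the trend and 5 to 13 for any difference. At 30 µg/kg the lowest count, 3, came without replicate 2 of 10 µg/kg and without replicate 1 of 30 µg/kg. At 10 µg/kg the count fell to 0 without any 1 of the 3 vehicle replicates and without replicate 2 or 3 of 10 µg/kg. For any difference it was 5 without replicate 1, 2 or 3 of 30 µg/kg, 6 without vehicle replicate 3 or replicate 3 of 3 µg/kg, and 7 without vehicle replicate 2. The cause of these shifts was not tested.

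Of 825 values of named lincRNAs under an alternative, 713 kept their direction and their side of the threshold. Another 93 lost a call (74 of them with 1 library left out) and 7 gained one. Every named lincRNA entered at 30 µg/kg, but it entered for another test only if the main fit called it there. Gains could therefore be counted at 30 µg/kg alone, and lost and gained calls cannot be weighed against each other. Calls gained in other tests, such as that of Gm26917 at 10 µg/kg, are not among the 7. The sign of the log2 change at 30 µg/kg turned in 6 uncalled lincRNAs. With the length and GC correction it was 0.015 for Neat1, -0.11 for Gm42428 and -0.071 for Snhg18, and with limma-voom -0.00044 for Ftx. Fits without 1 library ranged from -0.18 to 0.013 for Neat1, from -0.094 to 0.25 for Snhg18, from -0.085 to 0.13 for Ftx, from -0.069 to 0.27 for Snhg20 and from -0.020 to 0.38 for Jpx. No paired analysis was possible because the labels carry no replicate numbers, and those used here only name libraries. With 67 of the 96 lincRNAs under a mean of 200 counts, depth limits what these libraries can show for a small change.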
